A study of Drosophila melanogaster with 6 samples.

Results

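The nicotinic acetylcholine receptor subunits of the fly brain were described in brains with and without mushroom bodies. The members are the 10 subunit genes of Drosophila melanogaster, nAChRalpha1 to nAChRalpha7 and nAChRbeta1 to nAChRbeta3. They were chosen by symbol alone, as every probe set that the platform annotation assigns to a single gene with one of these symbols. This gave 13 of 13966 probe sets, covering 9 of the 10 genes among 10844 genes named on the array, and nAChRalpha6 had no such probe set and is not analysed here. Signal was measured on 6 Affymetrix arrays. The RNA came from adult female brains of CantonS, a standard wild-type strain. Controls (arrays 1, 2 and 3) received no treatment. Ablated brains (arrays 4, 5 and 6) came from larvae fed hydroxyurea, a blocker of DNA synthesis, at 25 mg/ml for 4 h just after hatching, when the neuroblasts of the mushroom bodies divide. Both groups were raised on cornmeal food at 25 °C. The drug acts on any cell that divides in that window, so its other effects and the missing mushroom bodies cannot be told apart. The comparison therefore asks which transcripts differ between brains of treated and untreated animals.

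Nicotinic receptors are pentamers of subunits around a cation channel that acetylcholine opens. Alpha subunits carry a pair of neighbouring cysteines in the main face of the binding site, beta subunits do not, and most insect receptors are thought to mix both kinds. Acetylcholine is the main fast excitatory transmitter of the insect brain. Kenyon cells, the intrinsic neurons of the mushroom bodies, receive odour input through nicotinic receptors from projection neurons and release acetylcholine themselves. The same receptors are the targets of neonicotinoid insecticides and are present in many neurons outside the mushroom bodies.

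None of the nicotinic probe sets passed the test between the groups. Of the 12 bright enough to test, limma with Benjamini-Hochberg adjustment over 8388 probe sets called 0 lower and 0 higher, where it called 0% of all tested probe sets in each direction (lowest adjusted p = 0.759). Before adjustment, 1 nicotinic probe set had p under 0.05 with a negative difference, against 2.5% of all tested, and 0 had it with a positive one, against 2.35%. In 2 of the 12 every ablated array lay below every control array, against 6.38% of all tested, and in 0 every ablated array lay above, against 4.64%. Differences below 0 were found for 6 of the 12, close to the 52.6% of all tested. The median log2 difference was -0.07 over the 12, 0.03 over all 13 and -0.02 over all tested probe sets. The median size of the difference, whatever its sign, was 0.27 for the 12 and 0.17 for all tested.

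All signals below are the deposited intensities after each array was scaled to a common level, because the deposited levels differed between arrays. The arrays were multiplied by factors from 0.855 (control 1, the brightest) to 1.13 (ablated 5, the dimmest). Differences are of log2(signal + 2.71), ablated minus control, and intervals are 95% limma intervals not adjusted for the number of probe sets. The choice of scaling matters here. Over all tested probe sets the median difference was -0.17 without scaling and between -0.06 and 0.00 under 3 other scalings. Probes differ in how strongly they bind, so the level of a subunit was not set against that of another. The labels do not say whether the arrays of a group came from separate rearings of flies. The p-values therefore rest on the variation among these arrays, technical or not, and precision is limited by their number.

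**Figure D1:**
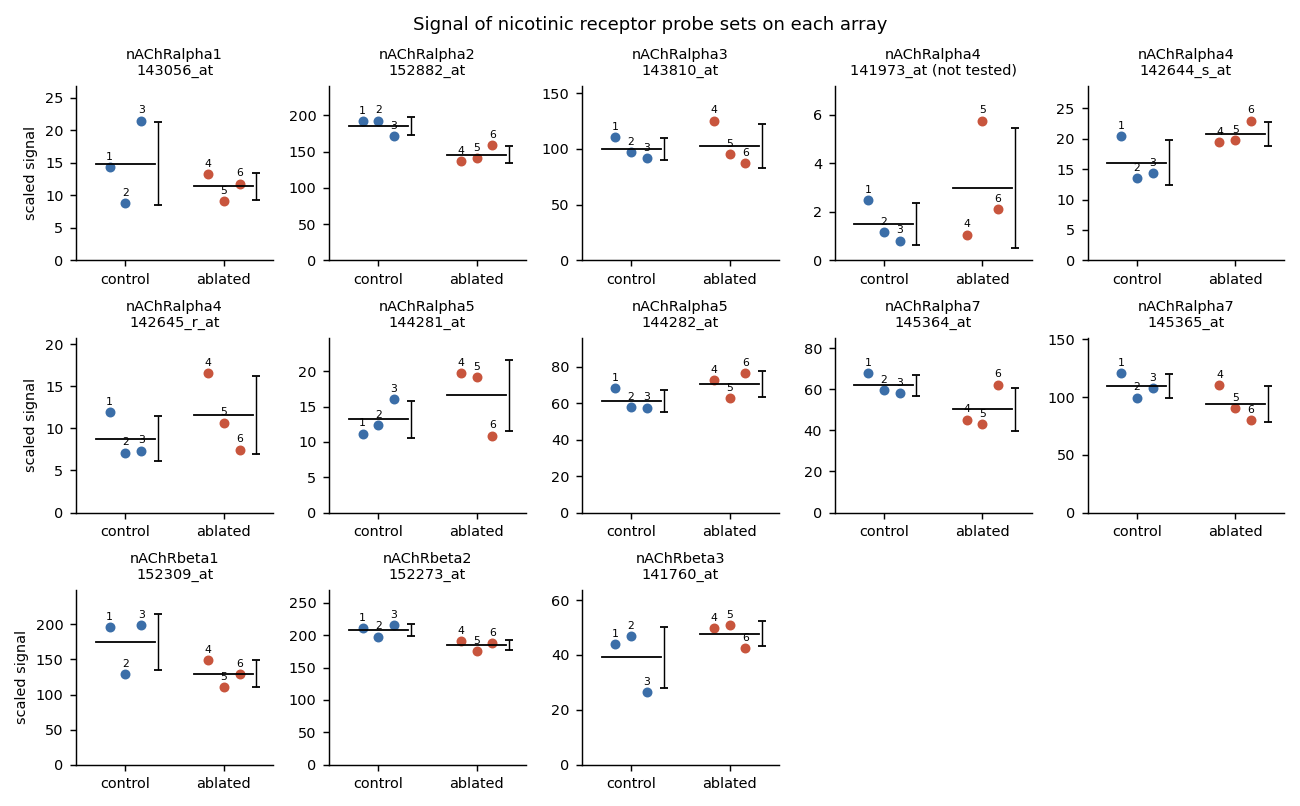
Scaled signal (vertical axes from 0, arbitrary units) of the 13 nicotinic probe sets on 3 control and 3 ablated arrays. Points are arrays with their numbers, horizontal lines are group means and bars beside them are ± 1 SD. In the panels of nAChRalpha2 and nAChRbeta2 every ablated array sits below every control array, and in the others the groups overlap.

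Among the alpha subunits, nAChRalpha2, a subunit that can pair with beta subunits in functional receptors, stood out most from its replicate spread. Its probe set (152882_at) read 192.2, 192.7 and 171.7 on the controls, in array order, and 137.2, 141.2 and 158.7 on the ablated arrays. All 3 ablated arrays were below all 3 control arrays, with array 6 the nearest to the controls. The means were 185.5 ± 12 and 145.7 ± 11.4 (SD, n = 3 each), a ratio of 0.788 with an interval of 0.641 to 0.969. The log2 difference was -0.34 (SE 0.13), with limma p = 0.0283 unadjusted, 0.839 adjusted and an exact permutation p = 0.1, the smallest that 3 against 3 arrays allow. Its difference lay between -0.30 and -0.51 in all 17 alternatives of processing or arrays. Those that changed only the filter or the variance model could not alter it.

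The neighbouring subunit nAChRalpha1 (143056_at), named among neonicotinoid targets, was dim and scattered. It read 14.3, 8.77 and 21.5 in control and 13.3, 9.14 and 11.8 in ablated brains. The groups overlapped and the controls alone spanned the whole range of the ablated arrays. Its log2 difference was -0.26 (SE 0.33), and without control 3 it was 0.01. Next to nAChRalpha2 lies nAChRbeta2, a beta subunit, measured by 152273_at at 210.3, 197.5 and 215.5 in control and 190.7, 175.2 and 188.0 in ablated brains. All ablated arrays were below all controls by a narrow margin, with the smallest spread within groups of any tested nicotinic probe set (SD 0.0645 on the log2 scale). The ratio was 0.890 with an interval of 0.735 to 1.08 (log2 difference -0.17, SE 0.12, adjusted p = 0.847, exact permutation p = 0.1), and after cyclic loess its groups overlapped. In the RefSeq table of release 6, nAChRalpha2 and nAChRbeta2 have 0 protein-coding genes between them, and nAChRalpha1 and nAChRalpha2 have 1. The 3 differences had the same sign under all 5 scalings, which use the same arrays. Differences below 0 were found for 52.6% of all tested probe sets, and a shared change of these neighbours was not tested.

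The 2 probe sets of nAChRalpha7, a subunit of the giant fibre escape circuit, both had negative differences. For 145364_at the signal was 68.0, 59.6 and 58.2 in control and 45.2, 43.2 and 62.3 in ablated brains. Arrays 4 and 5 were below all controls, and array 6 lay among them. The log2 difference was -0.30 (SE 0.18, interval -0.71 to 0.11, adjusted p = 0.839), and it was -0.46 without ablated 6. For 145365_at the signal was 121.1, 99.7 and 108.2 in control and 110.8, 90.5 and 80.0 in ablated brains. Here array 4 lay among the controls and arrays 5 and 6 below them, so the probe sets of this gene did not single out the same arrays. The log2 difference was -0.23 (SE 0.16, adjusted p = 0.847), with -0.12 without ablated 6 and -0.35 without ablated 4.

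nAChRbeta1, a beta subunit shared by many insect receptors, had a negative difference and a wide spread. With all arrays its difference was the most negative of the family. That place went to nAChRalpha2 without control 1 (-0.32 against -0.31), without control 3 (-0.40 against -0.30) and without ablated 5 (-0.32 against -0.30), and to nAChRalpha7 (145364_at) without ablated 6 (-0.46 against -0.41). Its probe set (152309_at) read 196.5, 128.9 and 199.1 in control and 149.0, 110.3 and 129.7 in ablated brains. Control 2 lay below ablated 4 and 6, and the other controls lay above every ablated array. The means were 174.9 ± 39.8 and 129.7 ± 19.4 (SD, n = 3 each), a ratio of 0.754 with an interval of 0.551 to 1.03. Its log2 difference was -0.41 (SE 0.20, limma p = 0.0723 unadjusted, 0.839 adjusted and exact permutation p = 0.3), and it was -0.61 without control 2 and -0.20 without both control 1 and ablated 5.

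The remaining subunits had differences near or above 0. nAChRalpha3 (143810_at), another neuronal alpha subunit, read 110.8, 96.9 and 91.5 in control and 125.4, 95.5 and 87.3 in ablated brains. The groups overlapped across their range, and the log2 difference of 0.03 (interval -0.36 to 0.42) turned to -0.13 without scaling and to -0.02 with median-centred arrays. nAChRalpha5 forms receptors with nAChRalpha6 and nAChRalpha7 and, like them, resembles the vertebrate alpha7 subunit. Its probe set 144282_at read 68.3, 57.7 and 57.6 in control and 72.7, 62.8 and 76.7 in ablated brains. Control 1 lay between ablated 5 and ablated 4, and the other controls lay below all ablated arrays. The log2 difference was 0.20 (interval -0.15 to 0.55, adjusted p = 0.851). Its dimmer probe set 144281_at ranged from 11.2 to 16.1 in control and from 10.9 to 19.8 in ablated brains. Its difference of 0.25 was 0.49 without ablated 6 and 0.13 without ablated 4.

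nAChRalpha4, known also as the sleep gene redeye, had 3 probe sets, none of them bright. For 142644_s_at the signal was 20.4, 13.6 and 14.3 in control and 19.5, 19.8 and 23.0 in ablated brains. Control 1 lay within the ablated range and the other controls below it, and the log2 difference was 0.33 (interval -0.18 to 0.84). The suffix s marks probes that can match more than 1 transcript, and r marks probes chosen under relaxed rules. For 142645_r_at the range was 7.11 to 11.9 in control and 7.47 to 16.6 in ablated brains. Its difference of 0.29 was 0.05 without ablated 4 and 0.51 without ablated 6. Its control mean of 8.78 was below the level of 9.19 used for testing, so it was tested only because of its ablated arrays. The last, 141973_at, read between 0.817 and 2.48 in control and between 1.06 and 5.76 in ablated brains and was too dim to test. nAChRbeta3 (141760_at), a divergent subunit, read 44.0, 46.9 and 26.4 in control and 49.8, 50.9 and 42.5 in ablated brains. Control 3 was the low array, and the log2 difference was 0.30 (interval -0.20 to 0.81), or 0.06 without control 3.

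**Figure D2:**
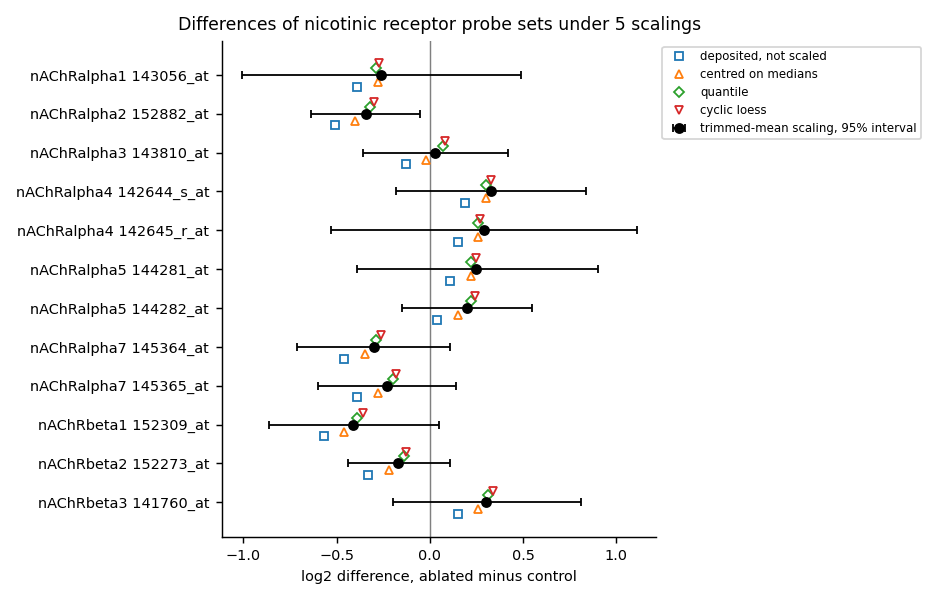
Log2 difference (ablated minus control, horizontal axis) of the 12 tested nicotinic probe sets. Filled circles with bars are the estimates after trimmed-mean scaling with 95% intervals, and open symbols are the same difference without scaling and under 3 other scalings. Only the interval of nAChRalpha2 (-0.64 to -0.05) lies on 1 side of 0, and nAChRalpha3 alone has open symbols on both sides.

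By sign, 6 probe sets of 5 genes (nAChRalpha1, nAChRalpha2, nAChRalpha7, nAChRbeta1 and nAChRbeta2) were below 0 under all 5 scalings. A further 5 probe sets of 3 genes (nAChRalpha4, nAChRalpha5 and nAChRbeta3) were above 0 under all 5, and nAChRalpha3 was mixed. Of these 5, 142645_r_at (nAChRalpha4) was tested only through its ablated arrays, which favours a sign above 0, so it adds nothing to the count. The probe sets of nAChRalpha5 shared a sign, as did those of nAChRalpha7. These signs describe the arrays and were not tested as groups.

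A difference between 2 probe sets on the same array hardly depends on how the array was scaled, and only its change between the groups has meaning. This comparison was chosen after the values were seen. For nAChRalpha5 (144282_at) minus nAChRalpha7 (145364_at) the log2 difference was 0.01, -0.05 and -0.01 in control and 0.66, 0.51 and 0.29 in ablated brains, again in array order. The controls lay close together and all ablated arrays were higher. The change was of the same sign for the other combinations of probe sets of these genes, at 0.43 for 144282_at minus 145365_at, without overlap, and at 0.56 and 0.48 for 144281_at minus 145364_at and 145365_at, both with overlap. For 144281_at minus 145364_at the difference ranged from -2.35 to -1.69 in control and was -1.09, -1.07 and -2.26 in ablated brains. Array 6 lay among the controls there, so the separation depends on the probe set.

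For nAChRalpha2 (152882_at) minus nAChRalpha4 (142644_s_at) the log2 difference was 3.07, 3.58 and 3.36 in control and 2.65, 2.68 and 2.65 in ablated brains, without overlap. With 142645_r_at in place of 142644_s_at it was 3.74, 4.31 and 4.12 in control and 2.86, 3.42 and 3.99 in ablated brains. Ablated 6 then lay among the controls, and the change was -0.63 against -0.68.

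Of the 66 pairs among the 12 probe sets, 14 (21.2%) had no overlap between the groups, against 10.9% of all pairs of tested probe sets. This count largely restates the signs above. Of the 14, 13 were among the 30 pairs that join a probe set below 0 under every scaling with one above 0, and 1 was among the other 36. The probe set tested only through its ablated arrays took part in 2 of the 14, and without it 12 of 55 pairs (21.8%) had no overlap. The 66 pairs reuse the same 12 probe sets, and 0 of the 3 pairs within a gene were among the 14. The higher share did not hold in every subset of arrays. Without control 1 and ablated 5 the shares were 30.3% of the nicotinic pairs and 34% of all pairs, and without control 2 and ablated 6 they were 68.2% and 37.2%, where fewer arrays make overlap rarer. Without ablated 5 alone the shares were 21.2% and 19.1%, and without ablated 6 they were 51.5% and 24.1%.

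**Figure D3:**
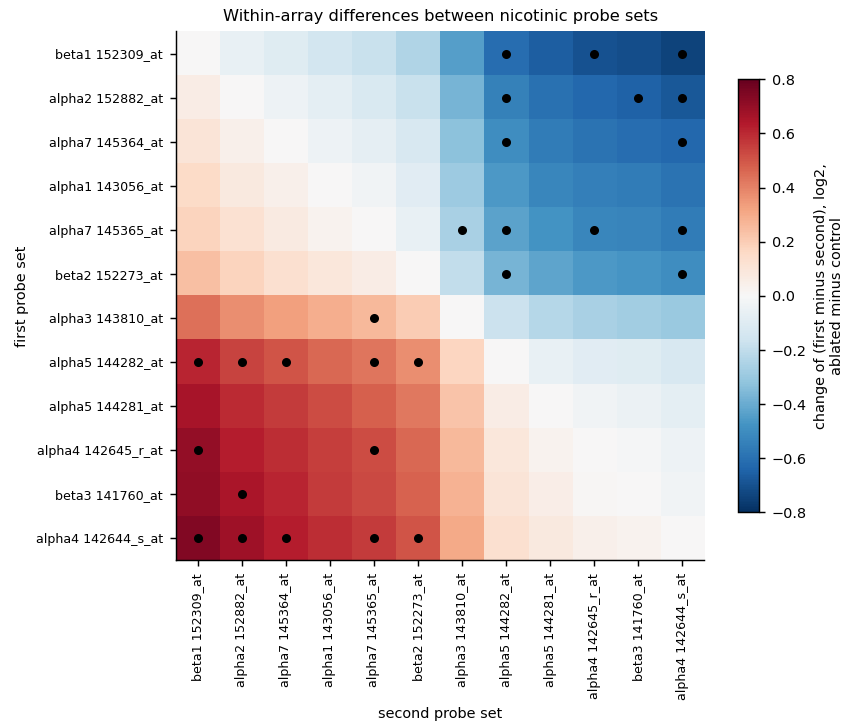
Change between groups (ablated minus control, colour, log2) of the within-array difference between each probe set in a row and each in a column, ordered by their own difference, which alone sets the gradient of colour. Dots mark the 14 of 66 pairs whose groups do not overlap, each drawn above and below the diagonal.

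Over the arrays, the mean of the 12 tested probe sets about their own means was 0.14, -0.11 and 0.00 for the controls and 0.12, -0.08 and -0.07 for the ablated brains (log2). It differed among arrays of a group as much as between the groups. The median spread within groups was 0.211 for the nicotinic probe sets and 0.254 for all tested. The probe sets most like this mean over the 6 arrays were those of H (151688_s_at, Hairless, an antagonist of Notch signalling), with Pearson r = 0.99, Gorab (148948_at, a Golgi protein), with 0.978, and Mkk4 (142758_at, a MAP kinase kinase), with 0.973. Of 7453 candidates 63 had r above 0.9, over 6 arrays that share their scaling.

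Genes that make, move or remove acetylcholine differed little. Of 4 listed, 3 had a probe set, 0 passed in either direction and the median was -0.09, against -0.02 over all tested probe sets. ChAT (151604_s_at), which makes acetylcholine, read 568.4, 476.3 and 477.1 in control and 545.7, 548.3 and 476.3 in ablated brains, a log2 difference of 0.05 (interval -0.24 to 0.33). ChT (151892_at), the choline transporter, differed by -0.10 (interval -0.44 to 0.25) and Ace (152974_at), the acetylcholinesterase, by -0.09 (interval -0.50 to 0.32). Their groups overlapped. Of the 3 muscarinic receptor genes, mAChR-B (149472_at) was tested and differed by -0.16 (SE 0.56), reading from 2.71 to 16.1, and mAChR-C was too dim to test.

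Among 4 accessory genes, 3 were tested, 0 passed and all 3 were below 0, with a median of -0.14. RIC-3 (152619_at), a receptor chaperone first known from worms, read 84.8, 79.5 and 86.6 in control and 67.3, 62.2 and 80.9 in ablated brains. Arrays 4 and 5 were below all controls, and array 6 lay among them, as for nAChRalpha7 (145364_at). The difference was -0.25 (SE 0.15, adjusted p = 0.839), and a dimmer probe set (147594_at) stood at 0.26. CG13920, listed in RefSeq with the synonym NACHO, the name of a receptor chaperone of mammals, differed by -0.14, and CG9338, a Ly6-family protein, by -0.11.

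Chloride channels of the same superfamily bind other transmitters such as GABA and glutamate. Of 11 listed, 7 were tested, 0 passed, 4 were below 0 and the median was -0.04. By the brightest probe set of each gene, the smallest p values belonged to Lcch3 (152194_at), a GABA receptor subunit, at -0.33 (SE 0.16), CG8916 (145161_at) at -0.27 and GluClalpha (144038_at), the glutamate-gated channel, at -0.21. A dimmer probe set of pHCl-1 (148832_at), named after its values were seen, stood at -1.13 with no overlap (limma adjusted p = 0.839). Its ablated mean of 8.83 was below 9.19, so it was tested only because of its control arrays. The brightest probe set of that gene (148831_at) stood at 0.00. The nicotinic genes, by their brightest probe set, had a median of -0.17 over 9 genes, and the difference between these lists was not tested.

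**Figure D4:**
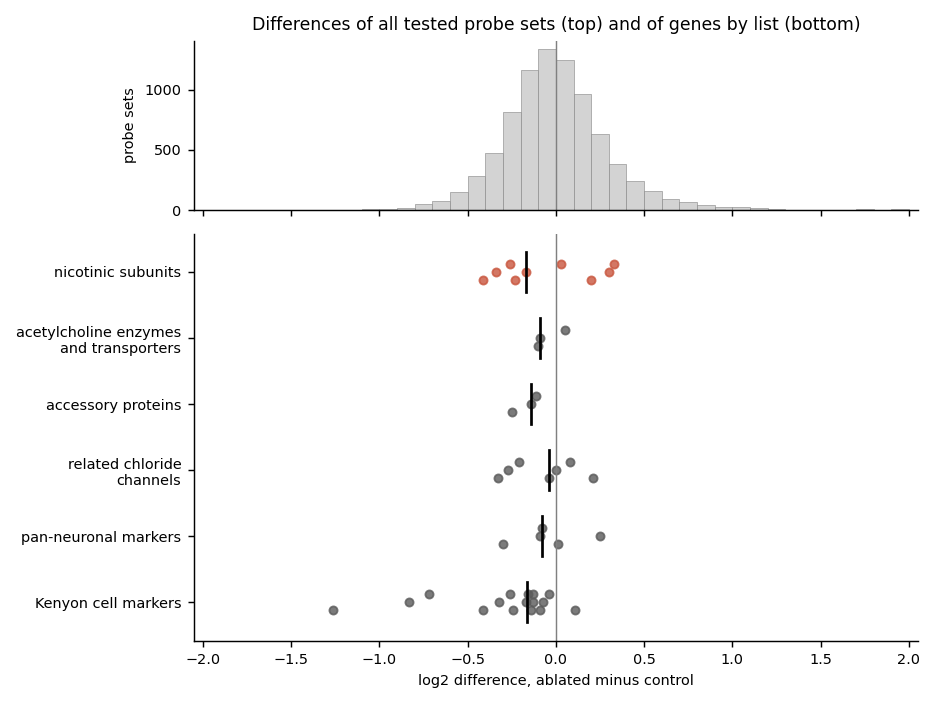
Top, number of tested probe sets by log2 difference (ablated minus control, bins of 0.1, values beyond 2 placed in the end bins). Bottom, the same difference for genes of 6 lists by their brightest tested probe set, with vertical bars at list medians. The nicotinic subunits lie on both sides of 0, between -0.41 and 0.33, while 15 of 16 Kenyon cell markers lie below 0.

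Markers give the setting for these values. The Kenyon cell marker ey (143543_at), a Pax6 transcription factor, measured 206.9 ± 20.9 in control and 115.2 ± 5.42 in ablated brains (SD, n = 3 each), with no overlap and a log2 difference of -0.83 (adjusted p = 0.759). Of 16 measured Kenyon cell markers 15 were below 0, against 52.6% of all tested probe sets. In 4 of the 16 all ablated arrays lay below all controls, against 6.38%. Among these 4, prt (143798_at) had an ablated mean of 8.8, below 9.19, so it was tested only because of its control arrays. The median over the 16 was -0.17, with summed signals of 5436.9 to 6377.2 in control and 5009.5 to 5597.7 in ablated brains. Most of these sums came from rut (151241_f_at, control mean 2215.1, difference -0.04) and 14-3-3zeta (153924_at, control mean 1823.9, difference -0.24). A much dimmer probe set of rut (143329_at, control mean 40.9) stood at -0.62, with overlap between the groups. Pan-neuronal markers had a median of -0.08 over 5 genes, summing to 856.9 to 1003.8 and 847.3 to 961.0, and glial markers -0.06 over 7. Antennal markers were above 0 in 6 of 6, with summed signals of 55.1 to 65.1 in control and 145.3 to 1540 in ablated brains, the highest on ablated 5. Control means of Os-C (0.935), Obp28a (2.31), Obp83b (4.34) and lush (0.6) were below 9.19. Only high ablated signals brought these genes into the test, which favours a sign above 0, so they add nothing to that count. Obp19d and Obp56d, with control means of 28 and 23.9, had every ablated array above every control array. On ablated 5 muscle markers were also highest, with sums of 77.4 to 625.5 in control and 231.4 to 1247.1 in ablated brains over 7 genes. Their median was 1.15 over the 5 tested, of which Act88F (control mean 5.16) was tested only because of its ablated arrays. Medians were 0.51 for photoreceptor markers over 6 genes, 0.32 for fat body markers over 5 and -0.21 for hemocyte markers over 3. The summed signals of each of these lists overlapped between the groups. Photoreceptor sums were 109.9 to 1514.7 in control and 422.5 to 1424.5 in ablated brains. Fat body sums were 11146.4 to 20955.3 and 15368.4 to 21859.5. Fbp1 of the fat body list (control mean 9.01) was tested only because of its ablated arrays. Without ablated 5 the tested nicotinic probe sets had the same signs, with -0.32 for nAChRalpha2, -0.30 for nAChRbeta1 and 0.28 for nAChRalpha5 (144282_at). For the Gapdh control probe sets the 3'/5' signal ratio, a sign of RNA integrity, was lowest on control 2 (7.18) and ablated 6 (7.12) and 9.37 to 13.0 on the others. The ratios of actin and eIF-4a ordered the arrays differently. Actin was lowest on ablated 4 (12.5), with 14.5 on ablated 6 and up to 19.4 on control 1, and eIF-4a was highest on ablated 5 (23.3) and 12 to 17.4 on the others. All these ratios lay between 7.12 and 23.3, so signal was much stronger at the 3' end on every array. The part of these markers and of RNA integrity in the nicotinic values was not tested. In whole-brain RNA, fewer cells of a type and less RNA per cell cannot be told apart.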

How the data were processed

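Each deposited value is a linear-scale intensity of 1 probe set on 1 array. The authors made these intensities with MAS5, per the submitters' processing notes, from biotin-labelled Trizol RNA, per the labels' protocols. Its settings were not stated, and no detection calls were used. After leaving out 44 control probe sets, each array was scaled so that its mean, trimmed by 2% at each end, matched the average of the arrays (37.3 to 49.3 before scaling). The offset was the 20th percentile of all values, and the test covered probe sets whose mean reached the 40th percentile (9.19). The comparison used limma 3.58.1 under R 4.3.3 (eBayes with an intensity trend, two-sided, no covariates), adjusted by Benjamini-Hochberg over all tested probe sets at 0.05, and the fit was tested on simulated data. Symbols came from the platform annotation, updated through gene identifiers for 12394 of 12443 single-gene probe sets. Lists used the brightest probe set per gene.

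Every nicotinic probe set was named. Up to 3 genes per pathway list were named by smallest p, and 3 probe sets by likeness to the nicotinic mean. The members and lists were chosen with earlier results of these data known. Alternatives covered scaling, offset, filter, variance model, probe set per gene and each array left out. Arrays shared at most 1.52% identical values, and correlations were 0.919 to 0.952 within groups and 0.914 to 0.959 between them. Sequences were not used here, and coordinates served only to count the genes between neighbouring subunits.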

Additional observations from a re-analysis of the deposited data

How the results depend on the processing

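No nicotinic probe set was called under any planned change of scaling, offset, filter or variance model, with any array left out, or in the subsets chosen after seeing the data. Over all tested probe sets, calls appeared only without control 1 (2 higher, 146651_at of scaf and 152766_at; range 0 to 2 over arrays left out) and without both control 2 and ablated 6 (2 higher, CG8306 and EbpIII), named after their values were seen; without adjustment the full set gave 197 higher. The median difference of the nicotinic probe sets was -0.23 without scaling and 0.03 without a filter, and over arrays left out it lay between -0.16 and 0.01. Of 200 recomputed differences of single probe sets 195 kept their sign. Changes of filter and variance model leave such a difference as it was, so in those settings the sign could not change. nAChRalpha3 turned to -0.13 without scaling and -0.02 with median centring, and ranged from -0.12 to 0.14 over arrays left out. nAChRalpha1 ranged from -0.53 to 0.01, above 0 only without control 3. Counts without overlap moved most. All ablated arrays were below all controls for 1 of 12 probe sets after cyclic loess (5.39% of all tested), for 2 to 4 with an array left out (4 without control 2, against 12.5%) and for 5 without control 2 and ablated 6 (21.3%). All were above for 0 to 3 with an array left out (3 without control 1, against 10.4%; 1 without ablated 5, against 9.14%; 2 without ablated 6, against 10.2%), for 3 without control 1 and ablated 5 (16.7%) and for 2 without control 2 and ablated 6 (16.4%). Pairs without overlap numbered 7 of 28 at a filter of 23.1, against 11% of all pairs. With an array left out they numbered 14 to 34 of 66, against 17.9% to 24.1% of all pairs. There were 26 without control 2, against 21.9%, and 34 without ablated 6, against 24.1%. Without both control 2 and ablated 6 there were 45, against 37.2%. Fewer arrays make overlap rarer, and otherwise the cause was not tested. No paired analysis was possible because the groups share no replicate numbers. Signal over background limits nAChRalpha1 and nAChRalpha4, whose probe sets are dim, and likewise 144281_at of nAChRalpha5 (control mean 13.2). No detection calls were at hand.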
